A study of Mus musculus with 15 samples.

Results

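The growth hormone and insulin-like growth factor (IGF) axis was followed in mouse liver through 10 genes: the receptors Ghr and Prlr, the signal transducer Stat5b, the feedback inhibitors Cish and Socs2, the ligand Igf1, its carrier Igfals, and the IGF-binding proteins Igfbp1, Igfbp2 and Igfbp4. They were chosen by gene symbol, and 21 of the 28167 RefSeq transcripts counted, from 10 of 20192 named genes, belong to them. The livers came from wild-type male C57BL/6N mice aged 8 to 10 weeks, kept for 2 weeks in 12 h of light and 12 h of dark and then moved to constant darkness. From 24 h later, 2 mice were killed at each of 7 circadian times (CT), CT0 to CT24 in steps of 4 h, and ribosome-protected fragments of whole liver were sequenced, giving 14 libraries with 40593197 to 90458783 counted reads (median 56446208). All groups share strain, sex, lighting schedule before darkness and tissue. They differ in circadian time and, along with it, in hours already spent in darkness. The 2 mice per time are the replicates. A test of the 7 times as groups sets them against the spread between these mice. A fitted 24-h cosine also counts departures of the times from the cosine as spread.

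Growth hormone is secreted by the pituitary in pulses, which in male rodents are separated by long intervals with little hormone. In hepatocytes the hormone binds its receptor, the kinase JAK2 phosphorylates STAT5B, and STAT5B switches on Igf1, Igfals and the inhibitors Cish and Socs2, which then dampen the receptor. Circulating IGF-I travels mostly in a complex with an IGF-binding protein and the acid-labile subunit encoded by Igfals, while IGFBP1 is a short-lived binding protein that insulin represses through FOXO1. Reads here count ribosomes on mRNA, so more mRNA and more ribosomes per mRNA cannot be told apart, and neither can fewer cells of a type and less RNA per cell.

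Cish was the member with the STAT motif at its very start. STAT5 dimers bind TTCNNNGAA, a palindrome that reads the same on both strands. Of 32851 RefSeq promoter windows (250 bases before to 50 after the start site, GRCm38.p6), 8.30% hold it. The Cish window holds 2 copies, beginning at bases 1 and 12 after the start site and separated by a pair of bases. Both are in capitals in this stretch of the plus strand, chr9:107296654-107296683, shown because Cish was the member that differed most between mice:
Cish: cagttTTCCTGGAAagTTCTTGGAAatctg
Of the members' other windows, 2 of 3 for Igfals hold 1 copy each (at -236 and -58 from the start), and 1 of 3 for Prlr holds 1 copy (at -110). Socs2 was not searched. These are letter matches, not measured binding.

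Summed hepatocyte markers lay between 38966 and 53490 CPM (edgeR's unit, read counts over library sizes scaled by the trimmed mean of M values, TMM) in every library, and the ligand genes Gh and Prl, made in the pituitary, had 0 reads in all 14 libraries. Summed Kupffer cell markers lay between 86.1 and 152 CPM, endothelial markers between 121 and 200.1 CPM, stellate cell and fibroblast markers between 168.0 and 277 CPM, and cholangiocyte markers between 11.03 and 24.3 CPM. The 7 pancreatic acinar markers found in the files all passed the rhythm test below, with a summed level of 3607 CPM in CT20 replicate 2, 71.6 CPM in CT24 replicate 2 and 35.0 CPM in CT12 replicate 2, and a median over libraries of 7.48 CPM. Their part in the results below was not tested beyond leaving those 3 libraries out. CT0 replicate 1 was the highest library for Kupffer cell, endothelial, stellate cell and cholangiocyte markers, and CT16 replicate 2 the lowest for the last 3 of these. The counts above 0 in CT16 replicate 2 are 100% even, where 48.9% to 50.4% are in the other libraries. Counting each read 2 times would give such counts, and whether this happened was not tested.

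Of the 10 genes, 1 passed the test for a 24-h rhythm (edgeR quasi-likelihood test of a cosine, Benjamini-Hochberg adjustment over 17299 transcripts), beside 11.3% of all transcripts tested. The median rise of the fitted cosine from trough to peak was 0.45 (log2) over the 10 genes and 0.44 over all transcripts. All 21 member transcripts passed the minimum of 10 counts per library, and 2 of them, both of Stat5b, were called. With JTK_CYCLE, whose P is adjusted over the lags of 1 transcript but not over transcripts, 4 members (Stat5b, Igfals, Igf1 and Igfbp2) had an adjusted P below 0.05 on reads scaled by the total count, beside 22.2% of transcripts. On TMM-scaled reads it was 1 member, Stat5b, beside 17.7%. Testing the 7 times as separate groups called 2 members, Stat5b and Igfbp1, beside 7.08% of transcripts.

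**Figure D1:**
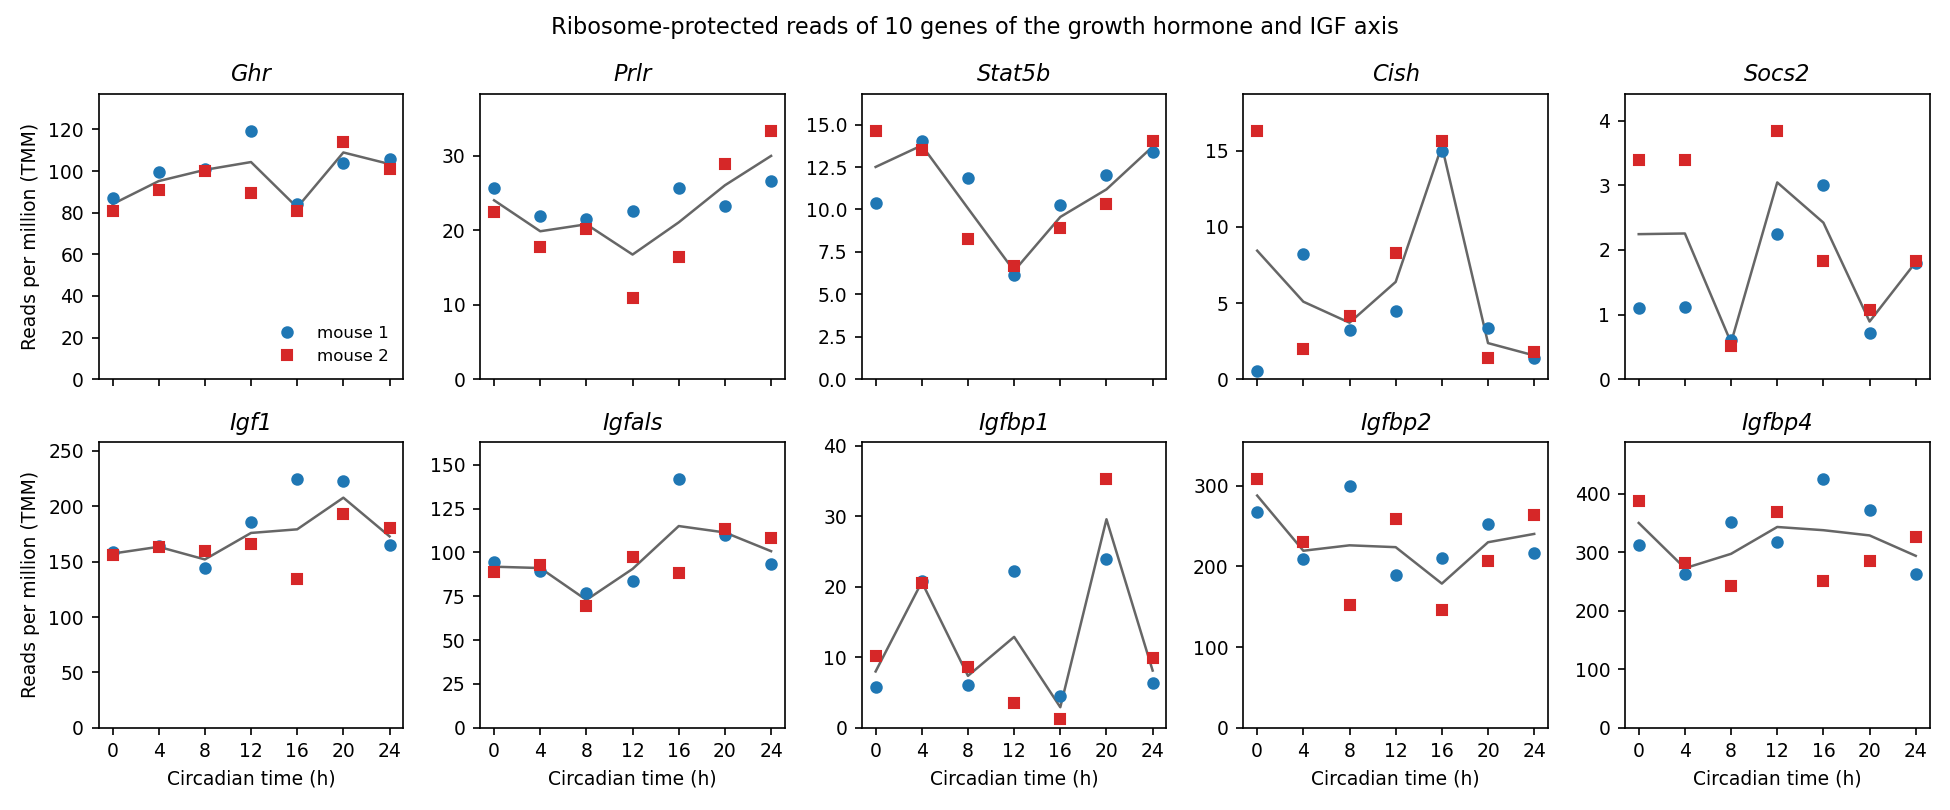
Ribosome-protected reads (TMM-scaled CPM, linear axis from 0) of the 10 genes against circadian time (h). Circles and squares are the mice numbered 1 and 2 at each time and the line joins the means of the 2 mice. Stat5b falls to 6.12 and 6.64 CPM at CT12, Igfbp1 is highest at CT20, and the Cish mice at CT0 lie at 0.573 and 16.3 CPM.

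Ghr (chr15:3317755-3583352, minus strand), the growth hormone receptor, was the steadiest member. Its lowest library held 81.0 CPM, its median 99.8 CPM and its highest 119 CPM, so the highest was 1.47 times the lowest. The fitted peak-to-trough change was 0.04 ± 0.15 on the log2 scale (SE, n = 14), and the edgeR adjusted p was 0.978. The mice of a time point differed by an SD of 0.13 on the log2 scale (7 pairs), and only 9.49% of 12029 transcripts averaging 100 counts or more differed less. The largest gap was at CT12, where one mouse held 119 CPM and the other 89.3 CPM.

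Ghr also encodes a short soluble form, the growth hormone-binding protein, whose 297 residues share their extracellular part with the 650-residue receptor. The receptor CDS held 72461 reads over 14 libraries and the binding protein CDS, which shares 811 bases with it, held 43246. The difference of 29215 reads, a lower bound for the 1142 bases of the receptor alone, ranged from 24.4 to 46.1 CPM between libraries. So reads on the receptor-only part were counted in every mouse. The leaders (5′UTRs) of the annotated receptor transcripts carried unequal numbers of reads. The leader of the most-read transcript held 9416 reads on 363 bases, while the alternative leader held 20 reads on 64 bases.

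Prlr (chr15:10177238-10337020, plus strand), the receptor for prolactin, which also signals through STAT5, did not pass the rhythm test. The mice held 25.7 and 22.4 CPM at CT0, 21.9 and 17.8 at CT4, 21.5 and 20.1 at CT8, 22.6 and 10.9 at CT12, 25.7 and 16.4 at CT16, 23.2 and 28.9 at CT20, and 26.6 and 33.4 at CT24. Both mice of CT20 and of CT24 lay above every mouse of CT4, CT8 and CT12, and the CT12 and CT16 mice lay far apart. The fitted difference was 0.60 ± 0.23 on the log2 scale with a peak at CT22.5 ± 1.6 h (SE, n = 14; edgeR adjusted p = 0.139). The highest 2 libraries (CT24 and CT20 replicate 2) and the lowest (CT12 replicate 2) are the 3 with most acinar marker reads, and without them the edgeR adjusted p was 0.639. Prlr has a long form with a full intracellular tail (608 residues) and short forms without it, one of 310 residues. The long CDS held 15700 reads and the 310-residue CDS 13791, so at least 1909 reads fell on the 987 bases of the long form alone. Between libraries that difference ran from -1 to 315 reads. Another short form, of 303 residues, shares the same 840 bases with the long form. The CDS of that form held 12878 reads, so subtracting it gives a higher lower bound. Such bounds understate the reads of the long form alone, so no density is given.

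Stat5b (chr11:100780731-100822570, minus strand), the transcription factor that relays the growth hormone signal, was the member with a rhythm. Its mice held 10.4 and 14.6 CPM at CT0, 14.02 and 13.5 at CT4, 11.9 and 8.25 at CT8, 6.12 and 6.64 at CT12, 10.2 and 8.88 at CT16, 12.0 and 10.3 at CT20, and 13.4 and 14.03 at CT24. Both CT12 mice lay below all 12 others. The mean of the 2 mice at CT4 (13.8 ± 0.355 CPM, SD) was 2.16 times that at CT12 (6.38 ± 0.370 CPM). The fitted cosine peaked at CT0.96 ± 0.83 h with a log2 rise from trough to peak of 0.87 ± 0.16 (SE, n = 14), which is 1.83-fold, and the edgeR adjusted p was 0.00484. The call held in all 28 alternatives, the 7 times as groups among them, with adjusted p from 0.000144 to 0.0446. With the 7 times as groups the edgeR adjusted p was 0.0222, and it rose to 0.134 without CT12 replicate 1, 0.0732 without CT12 replicate 2, 0.0506 without CT24 replicate 2, 0.0563 without CT4 replicate 1 and 0.0540 without CT4 replicate 2.

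Stat5b has a near-identical neighbour, Stat5a, on the same chromosome, and this limits what its counts say. Of the 28-base stretches of its CDS that lie within 1 exon, 58.4% occur once in the genome, and 426, 163, 98 and 94 of the 1875 have a copy in 4 separate parts of Stat5a. The 5′UTR is not shared in this way, with 96.5% of its stretches occurring once. Its 914 reads were lowest at CT12 (mean 0.276 CPM) and highest at CT4 (mean 1.72 CPM), as for the whole transcript. Unlike the whole transcript, it held more at CT8 (1.41 CPM) than at CT0 (1.14) and CT24 (1.31). The other annotated Stat5b leader, with 101 reads, was highest at CT8 (0.272 CPM) and lowest at CT24 (0.0204 CPM). Stat5a itself, at a median of 4.70 CPM, was called with a peak at CT24.0 and a difference of 1.10 on the log2 scale (edgeR adjusted p = 0.0358). Whether shared reads carry part of either result was not tested. Over the 14 libraries, the non-member genes whose levels ran most like those of Stat5b were Coq8a (r = 0.916), Fpgs (r = 0.910) and Actb (r = 0.902), of 8156 genes compared.

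The leader of Stat5b holds 8 short upstream reading frames (uORFs, an ATG with an in-frame stop inside the 5′UTR). One consists of nothing but a start and a stop codon, at chr11:100822101-100822106 on the minus strand, and the next begins on the base after it. They are shown with the start codon in capitals because a larger part of the leader than of the CDS occurs once in the genome:
Stat5b uORF at base 465: ATGtaa
Stat5b uORF at base 471: ATGtgtgcaacatag
Of the leader and CDS reads of Stat5b, 10.0% lay in the leader, where the median gene had 3.68%.

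Cish (chr9:107296659-107302784, plus strand), an immediate target and inhibitor of STAT5 signaling, varied greatly between mice of 1 time point. The mice held 0.573 and 16.3 CPM at CT0, 8.21 and 1.97 at CT4, 3.25 and 4.17 at CT8, 4.47 and 8.31 at CT12, 15.0 and 15.7 at CT16, 3.35 and 1.40 at CT20, and 1.37 and 1.76 at CT24. The CT0 mice thus differed 28.4-fold and spanned the whole range of the series, whereas both CT16 mice were high and both CT24 mice were low. The SD between mice of a time point was 1.22 on the log2 scale, above 99.8% of 12029 transcripts, whose median was 0.22.

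No 24-h rhythm was called for Cish. The fitted difference was 1.24 ± 0.80 on the log2 scale with a peak at CT15.4 ± 2.2 h (SE, n = 14; edgeR adjusted p = 0.518), and the adjusted p was 0.0491 without CT0 replicate 2. Over the 7 times as groups it was 0.161. Cish had from 34 to 1014 reads per library, though reads after PCR are not independent molecules.

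Socs2 (chr10:95411490-95416857, minus strand), the other STAT5-induced inhibitor, also separated mice of the same time. It held 1.10 and 3.39 CPM at CT0, 1.12 and 3.39 at CT4, 0.613 and 0.522 at CT8, 2.25 and 3.84 at CT12, 3.01 and 1.83 at CT16, 0.717 and 1.07 at CT20, and 1.79 and 1.83 at CT24. The lowest pairs were CT8 and CT20. The mice of a time point differed by an SD of 0.55 on the log2 scale, above 99.1% of transcripts, and the cosine fit was not called (edgeR adjusted p = 0.916). Socs2 levels did not follow those of Cish closely enough to pass (r = 0.41, permutation p = 0.143, 0.336 after Benjamini-Hochberg adjustment over 10 relations; rho = 0.45, permutation p = 0.107, adjusted 0.319; n = 14 mice; r = 0.31 without CT0 replicate 2 and CT16 replicate 2).

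Nearly all Socs2 reads lay before the start codon. Its 5′UTR held 1498 reads, its CDS 72 and its 3′UTR 6, so 95.4% of leader and CDS reads were in the leader, a share that 2 of 8749 genes exceeded. The share ran from 79.6% in CT8 replicate 1 to 100% in the 3 libraries with 0 CDS reads (CT0 replicate 2, CT12 replicate 2 and CT20 replicate 1). The genome holds copies of this gene. Of the 543 stretches of 28 bases in the Socs2 CDS, 80 (14.7%) occur once, 459 recur in the pseudogene Gm9847 at chr12:14494561-14495157 and 115 in the pseudogene Gm8000 at chr15:74986589-74987045. In the 5′UTR, 72.3% occur once. The study kept reads with a unique location for its profiles, and most CDS stretches of Socs2 have none. The part this plays in the share was not tested, and the CDS level of Socs2 is uncertain. The most-read Socs2 transcript has no uORF inside its 5′UTR and 1 upstream ATG, at base 125, whose frame of 342 bases runs into the CDS.

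**Figure D2:**
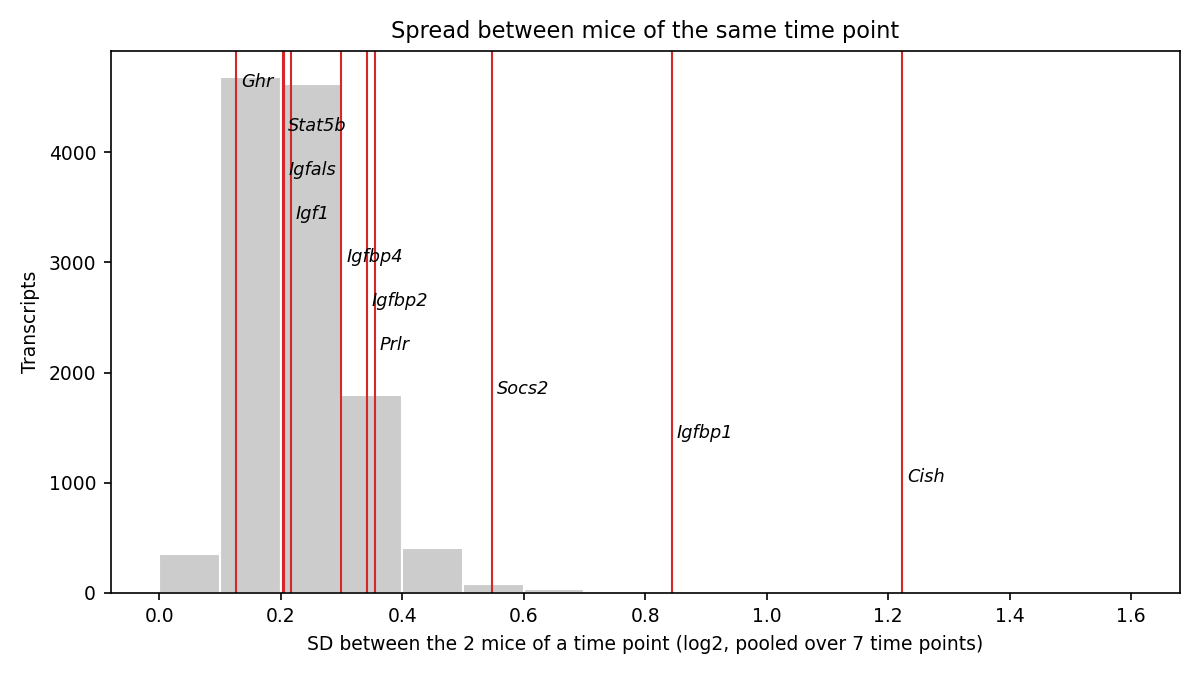
Histogram of the SD between the 2 mice of a time point (log2 scale, pooled over 7 time points, x axis) for 12029 transcripts averaging 100 counts or more (number of transcripts, y axis), with a red line for each of the 10 genes. Ghr lies at 0.13, below the median of 0.22, while Socs2 (0.55), Igfbp1 (0.84) and Cish (1.22) lie in the far right tail.

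Bcl6, a repressor that occupies STAT5 sites and that growth hormone pulses lower in male liver, was set beside Cish after the values of both had been seen. Bcl6 held 35.8 and 8.22 CPM at CT0, 4.17 and 6.45 at CT4, 17.2 and 12.3 at CT8, 9.06 and 4.40 at CT12, 5.38 and 6.57 at CT16, 2.82 and 18.6 at CT20, and 14.6 and 3.10 at CT24. In 6 of 7 pairs the mouse with more Cish had less Bcl6, CT16 being the exception. Ghr was also opposite to Cish in 6 of 7 pairs and Prlr and Igfals in 5. By size, differences within the 7 pairs correlated with those of Cish at r = -0.70 for Bcl6, -0.25 for Ghr, -0.15 for Prlr and -0.061 for Igfals. For the other members this r was positive, up to 0.67 for Stat5b. The Cish mouse at 0.573 CPM and the Bcl6 mouse at 35.8 CPM are both CT0 replicate 1, which stood highest for markers of 4 other cell types; their part was not tested. Over the 14 mice the relation of Bcl6 to Cish did not pass (r = -0.48, permutation p = 0.0785, adjusted 0.336 over 10 relations, and rho = -0.43, permutation p = 0.128, adjusted 0.319). It was r = -0.56 without CT0 replicate 2 and CT16 replicate 2, the 2 libraries highest in Cish. That value keeps CT0 replicate 1, the library lowest in Cish and highest in Bcl6. Over all 14 mice, the member with the largest r with Cish was Ghr (r = -0.54, permutation p = 0.0452, adjusted 0.336; rho = -0.56, permutation p = 0.0383, adjusted 0.281; n = 14), and r was -0.27 without the same 2 libraries. There Igfbp4 (r = 0.43), Prlr (r = -0.42), Stat5b (r = -0.33), Igf1 (r = 0.32) and Socs2 (r = 0.31) had larger values in size.

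**Figure D3:**
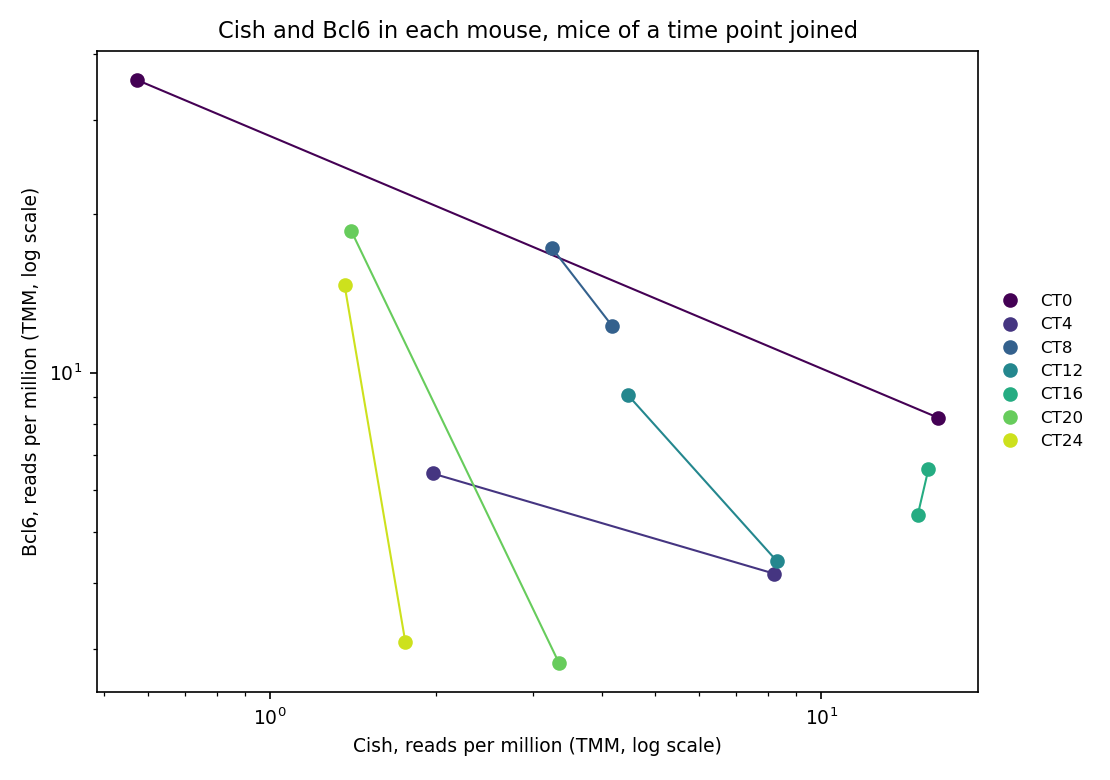
Bcl6 (y axis) against Cish (x axis), both as TMM-scaled CPM on log scales, for each of 14 mice, with the 2 mice of a time point in 1 color and joined. The line slopes down in 6 of 7 pairs, the steepest drop in Cish being from 16.3 to 0.573 CPM at CT0, and rises slightly at CT16.

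Igf1 (chr10:87859052-87937047, plus strand), the hormone itself, did not pass the rhythm test. Its lowest library held 134 CPM, its median 165 CPM and its highest 224 CPM, the lowest and the highest being the 2 mice of CT16. The mean was highest at CT20 (208 ± 20.8 CPM, SD, n = 2) and lowest at CT8 (152 ± 10.6 CPM), a ratio of 1.37. The cosine peaked at CT18.1 ± 1.8 h with a difference of 0.34 ± 0.16 on the log2 scale (SE, n = 14; edgeR adjusted p = 0.319). Without CT16 replicate 2 the adjusted p was 0.0392.

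Igf1 mRNA starts from alternative first exons, which give 2 leaders with no base in common, and both carried reads. The leader starting at chr10:87859052 held 9744 reads (33.1 per base of 294) and the one starting at chr10:87861111 held 7236 (27.8 per base of 260). The ratio of the later-starting to the earlier-starting leader ran from 0.399 in CT12 replicate 1 to 1.67 in CT20 replicate 1, with a median of 0.837. CT12 replicate 1 alone held 2024 reads in the first leader, and its share of Igf1 reads in the 5′UTR, 14.01%, was the highest of the 14 libraries.

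Each leader holds 4 uORFs. The shortest are shown, 3 of them a start codon followed at once by a stop and 1 with a codon between, with the start codon in capitals, because both leaders carried reads. The bases are counted from the 5′ end of each leader in GRCm38.p6, where the first leader is 298 bases long against 294 in the counted tables:
Igf1 first leader at base 92 (chr10:87859143-87859148): ATGtga
Igf1 first leader at base 175 (chr10:87859226-87859234): ATGgaataa
Igf1 first leader at base 200 (chr10:87859251-87859256): ATGtga
Igf1 second leader at base 132 (chr10:87861242-87861247): ATGtaa

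The end of the Igf1 coding sequence is also spliced in alternative ways, giving the Ea and Eb extension peptides. The 34 bases of CDS found only without exon 5 (Ea) held 3701 reads, or 109 per base, and the 52 bases found only with it (Eb) held 3478, or 66.9 per base. The 428 shared bases held 297 per base, all 3 values found by subtracting region counts of the forms. Reads over splice junctions may have been lost from such short stretches, so these densities are for comparing libraries. The ratio of Eb to Ea density ranged from 0.330 in CT0 replicate 2 to 1.56 in CT24 replicate 1, with a median of 0.658 and an SD of 0.61 on the log2 scale over 14 libraries.

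Igfals (chr17:24878747-24882011, plus strand), the acid-labile subunit that prolongs the life of IGF-I in blood, had the smallest p after Stat5b in the edgeR cosine test. The mice held 94.7 and 89.1 CPM at CT0, 89.3 and 93.0 at CT4, 76.7 and 69.2 at CT8, 83.6 and 97.7 at CT12, 142 and 88.4 at CT16, 109.7 and 113 at CT20, and 93.3 and 108 at CT24. Both CT8 mice were the lowest of the series and both CT20 mice were above all mice of CT0 to CT12. The cosine peaked at CT18.9 ± 0.97 h with a difference of 0.56 ± 0.15 on the log2 scale (SE, n = 14), with an edgeR adjusted p of 0.0539. The adjusted p was below 0.05 with a DESeq2 likelihood ratio test (0.0151), a minimum of 100 counts (0.0359), no minimum (0.0411) and CT16 replicate 2 left out (0.0259). In the other 24 of 28 alternatives it was not, with the highest values for the 7 times as groups (0.293), without CT8 replicate 2 (0.176) and without CT8 replicate 1 (0.133), and it was 0.117 without the 3 libraries with most acinar reads. Its levels ran most like those of Gsta2 (r = 0.886) and Plod3 (r = 0.879), and those of Prlr most like Vnn3 (r = 0.894), Ces1g (r = 0.889) and Hamp2 (r = 0.886), each over 14 libraries of which the 2 mice of a time share that time.

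Igfbp1 (chr11:7197787-7202546, plus strand), the binding protein under insulin control, differed among the 7 times without following a 24-h cosine. The mice held 5.84 and 10.1 CPM at CT0, 20.8 and 20.6 at CT4, 6.10 and 8.63 at CT8, 22.3 and 3.53 at CT12, 4.57 and 1.27 at CT16, 23.9 and 35.2 at CT20, and 6.38 and 9.86 at CT24. Both mice were high at CT4 and again at CT20, both were low at CT0, CT8, CT16 and CT24, and the CT12 mice differed 6.30-fold. The CT20 mean (29.6 ± 8.01 CPM, SD, n = 2) was 10.1 times the CT16 mean (2.92 ± 2.33 CPM). The cosine was not called (edgeR adjusted p = 0.798), but the 7 times as groups differed (edgeR adjusted p = 0.0195), and they did so with any 1 library left out, with adjusted p from 0.000449 to 0.0490. CT20 replicate 2, the library with most acinar marker reads, held 35.2 CPM, and the other CT20 mouse held 23.9 CPM. The 7 times as groups were not tested without all 3 libraries with most acinar reads. The SD between mice was 0.84 on the log2 scale, above 99.6% of transcripts.

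Igfbp1 also had the highest share of 5′UTR reads among the members after Socs2. Of its leader and CDS reads, 26.1% lay in the leader, from 15.4% in CT0 replicate 2 to 34.9% in CT24 replicate 1, and the share exceeded that of 93.5% of 8749 genes. Per base, the leader held 1.69 times the reads of the CDS. It has 1 uORF, of 42 bases, which begins at the first base of the 5′UTR.

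Igfbp2 (chr1:72824480-72852474, plus strand) and Igfbp4 (chr11:99041244-99052655, plus strand), IGF-binding proteins found in blood, did not pass the rhythm test. Igfbp2 ranged from 146 to 308 CPM with a median of 223 CPM, and its CT8 mice were 1.96-fold apart, at 299 and 153 CPM. Its cosine peaked at CT1.8 ± 2.6 h with a difference of 0.35 ± 0.23 on the log2 scale (SE, n = 14; edgeR adjusted p = 0.477). Igfbp4 ranged from 242 to 425 CPM with a median of 315 CPM, and its CT16 mice were 1.69-fold apart. Its difference was 0.27 ± 0.21 on the log2 scale (SE, n = 14; edgeR adjusted p = 0.603). Of the 2 Igfbp2 windows, 1 holds a CACGTG, the E-box of clock factors, at -142 from its start, a motif found in 7.15% of windows. The same search covered AGGTCA, a part of the RORE, and the D-box TTATGNAA, found in 16.3% and 3.4% of windows. AGGTCA was found for Stat5b (at -35), Igf1 (at -161) and Igfals (at 27, -5 and -13), and for the non-member Stat5a (at -46 and -44). The D-box was found for Prlr (at -238). These too are letter matches, not measured binding.

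Per length, the 10 genes spanned a wide range of CDS read density (RPKM, from TMM-scaled reads and CDS length, mean ± SD over 14 libraries). Igfbp4 led with 362 ± 62.3, followed by Igf1 (323 ± 50.2), Igfbp2 (226 ± 46.6), Igfals (52.7 ± 9.73), Ghr (43.7 ± 6.41), Igfbp1 (11.5 ± 8.83), Prlr (10.2 ± 2.52), Cish (6.77 ± 6.27), Stat5b (4.16 ± 1.01) and Socs2 (0.150 ± 0.159). Igfbp2 lay above Igfals and Ghr above Igfbp1 in 14 of 14 libraries. Igfbp4 lay above Igf1 in 9 libraries, Igf1 above Igfbp2 in 12, Igfals above Ghr in 11, Igfbp1 above Prlr in 6, Prlr above Cish in 10 and Cish above Stat5b in 7, so these neighbours did not keep their order in every mouse. The places of Stat5b and Socs2 are uncertain, since 58.4% and 14.7% of their CDS stretches occur once in the genome and how reads with several locations were counted is not known. The secreted ligand, carrier and binding proteins other than Igfbp1 thus had higher mean densities than the receptors and the signaling proteins.

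**Figure D4:**
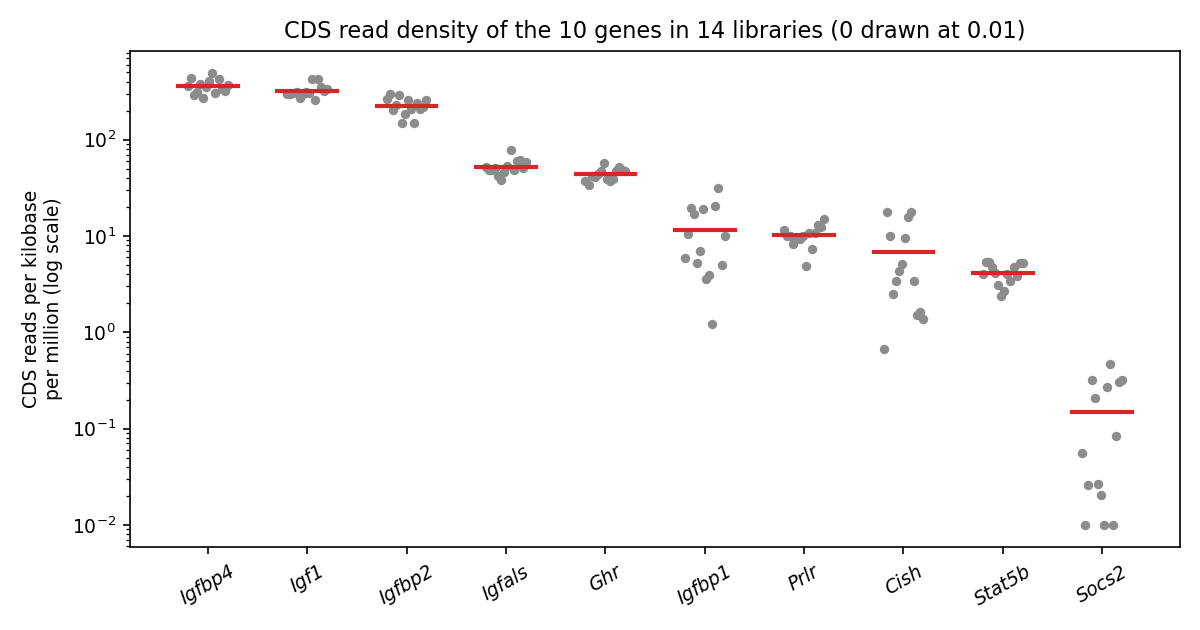
CDS read density (RPKM; y axis, log scale) of the 10 genes, ordered by mean. Gray points are 14 libraries in order of time, red bars are means, and libraries with 0 reads (Socs2 only) are drawn at 0.01. Igfbp4, Igf1 and Igfbp2 lie above 149 in every library, Igfbp1 and Cish spread over more than 10-fold, and Socs2 lies lowest.

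No change over the day was called in how reads divide between leader and CDS. The log2 leader over CDS ratio could be tested for 9 members (Socs2 had too few CDS reads), and limma called 0 of them and 0 of 7640 transcripts (0%), with 377 transcripts at an unadjusted p below 0.05. The shares themselves differed widely between members, from 0.672% for Igfals and 6.95% for Igf1 to 17.4% for Prlr, 26.1% for Igfbp1 and 95.4% for Socs2. The 3′UTR took 3.85% of Cish reads and 2.85% of Igf1 reads, more than in 97.2% and 96.2% of genes. In Igf1, 3701 of its 4119 3′UTR reads fell on the 34 bases that are coding in the Ea form.

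**Figure D5:**
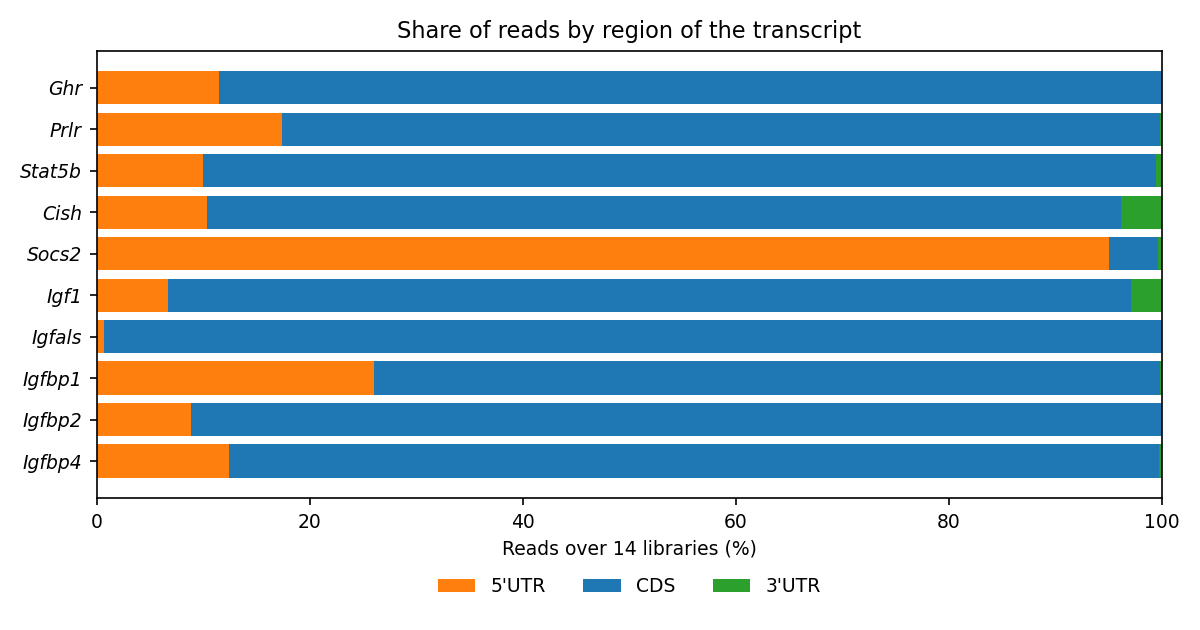
Share (%) of reads by region (stacked bars along the x axis: 5′UTR in orange, CDS in blue, 3′UTR in green), summed over 14 libraries, for the most-read transcript of each gene. For Socs2, the 5′UTR takes 95.1% of reads and the CDS 4.57%, while Igfals has 99.2% in the CDS.

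Prlr, with the longest member leader, has 7 uORFs, and 2 of them, which overlap, lie in exons that all 3 Prlr transcripts share, ending 63 and 43 bases before the CDS. They are shown, start codons in capitals, because every annotated Prlr transcript carries them:
Prlr uORF at base 671 (chr15:10293687-10293701): ATGttttgcacatga
Prlr uORF at base 682 (starts at chr15:10293698, ends across an intron at 10314175): ATGaaccctgaagggagcctctga

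CT0 and CT24 are the same circadian time a day apart, and no member was called different between them. edgeR called 0 of 10 members and 0 of 17299 transcripts (0%), with 873 transcripts at an unadjusted p below 0.05, and a DESeq2 Wald test called 0 members and 2 transcripts. The largest member difference was that of Cish, which fell by 2.43 on the log2 scale from CT0 to CT24 (unadjusted p = 0.0142, adjusted p = 0.957), which rests on the 1 CT0 mouse with 16.3 CPM, the other being at 0.573 CPM.

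Around the members, a list of 36 further genes of the pathway gave 27 that could be tested, of which 5 (18.5%) had a called rhythm, against 11.3% of all transcripts. The median rise from trough to peak over the 27 was 0.63 (log2), and the differences below are on that scale. Irs2, an adaptor of the insulin and IGF-I receptors, peaked at CT23.4 with a difference of 1.35 (edgeR adjusted p = 0.0195), and Pik3r1, the regulatory subunit of PI3-kinase, peaked at CT14.7 with a difference of 0.89 (0.00730). Klb, the co-receptor of FGF21, peaked at CT7.6 with a difference of 0.72 (0.0456). Stat5a, given above, was also among the 5. Jak2, the kinase bound to Ghr, ranged from 1.06 to 2.96 CPM and was not called (adjusted p = 0.637). Igfbp3, the main partner of Igfals in blood, ranged from 4.90 to 13.0 CPM and was not called either (adjusted p = 0.247). Igf1r, the IGF-I receptor, which hepatocytes hardly make, had a median of 0.728 CPM. Without the 3 libraries with most acinar reads, 2 list genes were called, Pik3r1 and Igfbp7, and Irs2, Klb and Stat5a were not. Scaled by total count, 4 were called, Stat5a, Irs2, Irs1 and Ptpn6, while Pik3r1 (adjusted p = 0.136) and Klb (0.503) were not.

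Genes that growth hormone controls or that differ between the sexes in liver gave 8 rhythms among 21 tested (38.1%, against 11.3% of all transcripts), with a median difference of 1.03 (log2), against 0.44 over all. Elovl3, a fatty acid elongase, peaked at CT0.35 with a difference of 3.97 (edgeR adjusted p = 2.25e-08) and Cyp8b1, a bile acid enzyme, at CT1.1 with 1.56 (7.2e-06), while the male-biased Hsd3b5 peaked at CT5.7 with 1.03 (0.0113). Also called were Cyp17a1, Cyp2a4, Acot3 and Fmo2, with peaks from CT15.8 to CT18.3. Serpina3k, a classic growth hormone target, ranged from 3939 to 5365 CPM and was not called (adjusted p = 0.574). Of 11 genes of insulin and FOXO1 action, to which Igfbp1 is close, 8 were called (72.7%, against the same 11.3%), with a median difference of 1.07 (log2), and Irs2 is also in the pathway list. Without the 3 libraries with most acinar reads, 8 and 4 genes of these lists were called. Pck1 peaked at CT11.5 with 1.92 (3.16e-06) and Pdk4 at CT22.6 with 2.84 (0.000767).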

How the data were processed

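Ribosome-protected fragments of mouse liver were sequenced by the authors, who deposited, for each of 14 libraries, unnormalized counts of reads for each RefSeq transcript by region (leader, coding sequence, trailer) beside the region's length, on mm10. The submitters' processing notes name FastQC, Bowtie2 2.1.0.0 and SAMtools 0.1.19.0. Reads of 26 to 32 nt with a unique location are named in the study's methods for its profiles. How the counted tables treated reads with several locations is not given in the sources used here. The labels place the reads of a second run of CT16 replicate 2 in that library's table, which was not tested, and the pair with CT24 in its replicate names carries CT00 elsewhere in its labels, where the replicate name was used.

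Region counts were added per transcript, and a gene is shown by its most-read transcript. Symbols came from the RefSeq table for 27836 of 28167 transcripts. TMM factors ran from 0.736 to 1.46, so scaling by total count shifts all genes together by up to that much. Rhythms were tested with edgeR 4.0.16 (TMM, quasi-likelihood F test of cosine and sine terms over 24 h, Benjamini-Hochberg adjustment, mean of at least 10 counts) in R 4.3.3 and with JTK_CYCLE rewritten in Python 3.11.15. Errors of phase and of the rise came from least squares on log2(CPM + 1). The log2 leader over CDS ratio (pseudocount 0.5) was tested with limma 3.58.1. DESeq2 1.42.0 was an alternative. Correlations used 100000 permutations. Sequences, uORFs and 28-base stretches (those found once on the assembled chromosomes) came from GRCm38.p6. The 5′UTR lengths of Cish, Igf1 (first leader), Igfals, Igfbp4 and the second Stat5b transcript differ between tables and reference, so their uORF counts are for the reference. The edgeR, limma and JTK_CYCLE steps were tested on simulated data. Each library held 40593197 to 90458783 counts, and 2 mice per time limit precision. The members and lists were chosen with earlier results of these data known. Named by rule were all members, the pathway genes past the edgeR cosine test, and for the 3 members with the smallest cosine p the 3 genes with the highest Pearson r to each. All other genes with values (Bcl6, Jak2, Igfbp3, Igf1r, Igfbp7 and those of the other lists) were named after their values were seen. Some genes that these rules or lists would name are not reported here.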

Additional observations from a re-analysis of the deposited data

How the results depend on the processing

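Of the 10 members, 1 was called rhythmic by the edgeR cosine, and 2 were with a DESeq2 likelihood ratio test, with a minimum of 100 counts, with no minimum and with the 7 times as groups, and 1 to 3 with each library left out in turn (3 without CT16 replicate 2, 2 without CT0 replicate 2). Stat5b was among them in each. The replicate block (mouse numbers 1 and 2 as a term) left 1 member, and 4 list genes. The differences between mice 1 and 2 correlated between time points with a median r of 0.031 (-0.12 to 0.30, 3 of 21 above 0.1). A low median r cannot show that mice of the same number share nothing, and a shared batch was not tested further. For JTK_CYCLE the 4 members became 1 with TMM scaling, 1 with DESeq2 size factors, 0 with Benjamini-Hochberg adjustment over transcripts, and 2 to 6 with each library left out (2 without CT12 replicate 2, 6 without CT16 replicate 1). The 5 pathway genes became 8 with DESeq2, 3 with the 7 times as groups, 2 without CT0, 3 without CT24, 2 without the 3 libraries with most acinar reads and 2 to 5 with each library left out (2 without CT8 replicate 2, 3 without CT0 replicate 1, CT0 replicate 2, CT4 replicate 1, CT12 replicate 1, CT20 replicate 2 or CT24 replicate 1). The 8 growth hormone-responsive genes became 5 with a minimum of 100 counts (16 tested) and 7 to 11 with each library left out. The 8 genes of insulin and FOXO1 action became 5 with total count as scale, 5 without CT0, 4 without the 3 acinar libraries and 5 to 8 with each library left out (5 without CT0 replicate 2). With the replicate block they were 7 and 8. Total count as scale left 4 pathway genes. Halving the counts of CT16 replicate 2 left 1 member and 5 list genes. That setting, the leaving out of the 3 acinar libraries, the 7-group fits without 1 library and all alternatives for the last 2 lists were chosen after seeing the data. The 5′UTR ratio and the CT24 to CT0 comparison kept 0 members under every alternative run, the replicate block included. The cause of these shifts was not tested. Socs2 had 0 to 14 CDS reads per library.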
